A study of Mus musculus with 8 samples.

Results

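The genes of the mitochondrial ribosomal proteins were followed as a group of 77, taken from the 19857 genes of the deposited count table as the protein-coding genes whose symbol starts with Mrpl or Mrps and goes on with a number. The rule reads names and no measured value, although the group was proposed with earlier results of these libraries known. They comprised 48 Mrpl genes, named for the large subunit, and 29 Mrps genes, named for the small subunit, and lay on 17 chromosomes. The annotation held 78 such symbols, of which Mrpl53 was not analysed here. The tongues came from 12-month-old female mice, 4 of wild type (WT) and 4 heterozygous for the Pabpn1 allele A17 (A17/+), an allele with a lengthened alanine tract in the nuclear poly(A)-binding protein that is used to model oculopharyngeal muscular dystrophy. Sex, age and tissue were the same in both genotypes, and strain and the making of the allele are not given in the sources used here. Each library was bulk RNA from 1 mouse, read at the 3' end with a molecular identifier per cDNA (mcSCRB-seq), so that a count is a molecule and does not grow with transcript length.

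Mitochondria keep their own ribosome, which translates the few messenger RNAs of the mitochondrial genome into core subunits of the respiratory chain and ATP synthase. Its ribosomal RNAs, mt-Rnr1 in the small subunit and mt-Rnr2 in the large subunit, are transcribed inside the mitochondrion, whereas every protein of it is encoded in the nucleus, made in the cytosol and imported. Many of these proteins descend from bacterial ribosomal proteins and others were added in mitochondria. Skeletal muscle, the bulk of the tongue, is rich in mitochondria. A symbol does not always give the place of the protein: Mrps30 and Mrps18a sit in the large subunit, Mrps36 is a part of the 2-oxoglutarate dehydrogenase complex, and Mrpl58 is also a peptidyl-tRNA hydrolase that frees stalled chains.

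Promoters of nuclear genes for mitochondrial proteins often hold sites for the activators NRF1, the ETS family (which includes GABPA) and YY1, so the stretch upstream of 6 members is shown first. Mrpl42 and Mrpl33 are the members that rose in A17/+. Mrpl12 and Mrpl45, with few counts in WT, were called higher with no filter on counts. They were not called with a total of at least 40 counts as the filter (edgeR, adjusted p = 0.0798 and 0.122). For Mrpl17 and for Mrps22 the mean in WT was close to the mean in A17/+. The sequences are from RefSeq on GRCm38.p6, 150 bases each, 5′ to 3′ on the strand of the gene, at chr10:95501950-95502099 (minus strand, Mrpl42), chr5:31613789-31613938 (plus, Mrpl33), chr11:120484463-120484612 (plus, Mrpl12), chr11:97315566-97315715 (plus, Mrpl45), chr7:105811100-105811249 (minus, Mrpl17) and chr9:98601680-98601829 (minus, Mrps22). Capitals mark a match to the NRF1 motif in Mrpl12, Mrpl45 and Mrpl17 and to the ETS motif in Mrps22.
Mrpl42: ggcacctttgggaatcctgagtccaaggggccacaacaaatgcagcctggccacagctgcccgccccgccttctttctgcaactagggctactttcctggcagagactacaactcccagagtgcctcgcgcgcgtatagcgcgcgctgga
Mrpl33: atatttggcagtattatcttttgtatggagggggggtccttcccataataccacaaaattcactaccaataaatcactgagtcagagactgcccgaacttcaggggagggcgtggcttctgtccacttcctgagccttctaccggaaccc
Mrpl12: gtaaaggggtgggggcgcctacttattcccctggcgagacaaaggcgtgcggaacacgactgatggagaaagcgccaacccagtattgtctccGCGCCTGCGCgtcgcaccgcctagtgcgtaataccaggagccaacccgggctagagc
Mrpl45: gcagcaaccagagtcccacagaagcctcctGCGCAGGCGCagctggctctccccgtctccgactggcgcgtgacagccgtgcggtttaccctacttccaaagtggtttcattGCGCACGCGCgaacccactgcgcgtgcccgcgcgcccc
Mrpl17: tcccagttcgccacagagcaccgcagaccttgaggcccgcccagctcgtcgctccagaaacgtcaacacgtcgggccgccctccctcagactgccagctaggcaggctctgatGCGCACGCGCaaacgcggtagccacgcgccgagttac
Mrps22: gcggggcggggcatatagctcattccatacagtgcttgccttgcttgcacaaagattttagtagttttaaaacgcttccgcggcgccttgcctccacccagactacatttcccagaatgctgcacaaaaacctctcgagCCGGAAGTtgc

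Windows from 250 bases before to 50 bases after the start were available for 68 of the 77 members. They were searched on both strands for GCGCA, any base and GCGC (NRF1), for CCGGAAGT (ETS) and for AANATGG directly followed by CGGC (YY1), and a window could hold more than 1 of them. NRF1 letters were in 13 members (19.1%), against 5.19% of all 27025 genes with a window and 12.6% of the 5664 coding genes with at least 40 counts in these libraries. ETS letters were in 12 members (17.6%, against 4.31% and 9.36%), and YY1 letters in 7 (10.3%, against 1.17% and 3.25%). The 150 bases shown for Mrpl42 and Mrpl33 hold none of the 3, although the window of Mrpl33 has an ETS match across its start. The median log2 difference between genotypes, fitted with no filter, was 0.47 over the 13 members with NRF1 letters, 1.07 over the 12 with ETS letters, 0.36 over the 7 with YY1 letters and 0.94 over the 39 with none. A match of letters is a description of the sequence and not a bound site.

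Library totals ran from 205696 to 485326 molecules, lowest in WT 4, and between 57 and 72 of the 77 members had a count in a WT library and between 74 and 77 in an A17/+ library. With every library thinned to the smallest total the members with a count were 57 to 64 in WT and 67 to 74 in A17/+. Pabpn1, the altered gene, lay below the filter, at 11.8 to 30.6 CPM in WT and 12.8 to 28.5 CPM in A17/+ (counts relative to the library total, scaled by TMM, a correction for composition), and 3' counts do not read the altered tract. WT 1 stood apart from the other WT libraries in holding salivary gland transcripts, 1887 CPM for 6 marker genes against at most 9.43 CPM in the other WT libraries and 14.4 to 54.5 CPM in A17/+. A17/+ 1 had the lowest sum over all 77 members in its genotype, 2073 CPM, against 2595 to 2910 CPM in the other A17/+ libraries and at most 1916 CPM in WT. Transcripts shorter than 1000 nt took 4.68% to 6.85% of counts in WT and 6.65% to 9.62% in A17/+, and those of the mitochondrial genome 4.17% to 6.43% and 7.24% to 10.98%.

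Because single members have few molecules, their counts were first summed per library. The members together were higher in every A17/+ library than in any WT library, with a log2 difference of 0.67 for Mrpl and 0.43 for Mrps. That order turned when each sum was taken without its own 3 members with most counts, where Mrpl had 0.71 and Mrps 0.87. The median over tested genes was 0.11 for Mrpl and 0.34 for Mrps. The summed Mrpl level was 1182, 976, 1027 and 882 CPM in WT 1 to 4 and 1196, 1970, 1636 and 1726 CPM in A17/+ 1 to 4. A17/+ 1 lay only just above WT 1, and the other 3 A17/+ libraries lay well apart from all WT libraries. The order of A17/+ 1 and WT 1 rests on the TMM scaling. WT 1 held 580 Mrpl counts of 465014 and A17/+ 1 held 582 of 485326, so that by library total A17/+ 1 lay below WT 1. The means were 1017 ± 126 CPM in WT and 1632 ± 323 CPM in A17/+ (mean ± SD, n = 4). The summed Mrps level was 734, 654, 682 and 665 CPM in WT 1 to 4 and 877, 940, 988 and 869 CPM in A17/+ 1 to 4. Here the groups were further apart than the libraries within a group, with means of 684 ± 35.3 and 919 ± 56.0 CPM (SD, n = 4). No p is given for a sum over members proposed in that way. In bulk RNA, fewer cells of a type and less RNA per cell cannot be told apart.

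Grouping by the subunit in which the protein sits, with Mrps30 and Mrps18a moved and Mrps36 left out, gave log2 differences of 0.67 for 50 large subunit genes and 0.40 for 26 small subunit genes. The ratio of Mrpl to Mrps counts was 1.33 to 1.61 in WT and 1.36 to 2.097 in A17/+. A17/+ 1, at 1.36, was inside the WT range and the other A17/+ libraries, from 1.66, were above it. The 47 members with a bacterial homologue summed to 1142 ± 58.3 CPM in WT and 1629 ± 233 CPM in A17/+, and the 29 that were added in mitochondria to 554 ± 103 and 914 ± 123 CPM (SD, n = 4), log2 differences of 0.50 and 0.73.

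The difference in the sums lay mostly in the members with fewer counts. The 10 members with the highest mean level summed to 1017, 899, 968 and 872 CPM in WT 1 to 4 and to 1066, 1043, 1049 and 1009 CPM in A17/+ 1 to 4, which overlap at A17/+ 4. The other 67 summed to 899, 731, 742 and 675 CPM in WT and to 1007, 1866, 1574 and 1585 CPM in A17/+, which do not overlap. The log2 differences were 0.15 for the 10 and 0.96 for the 67, and the share of the 10 in all member counts was 55.3% ± 1.61 in WT and 41.5% ± 6.82 in A17/+ (mean ± SD, n = 4). The median member stood at 8.88 to 10.2 CPM in WT and at 16.4 to 27.9 CPM in A17/+.

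**Figure D1:**
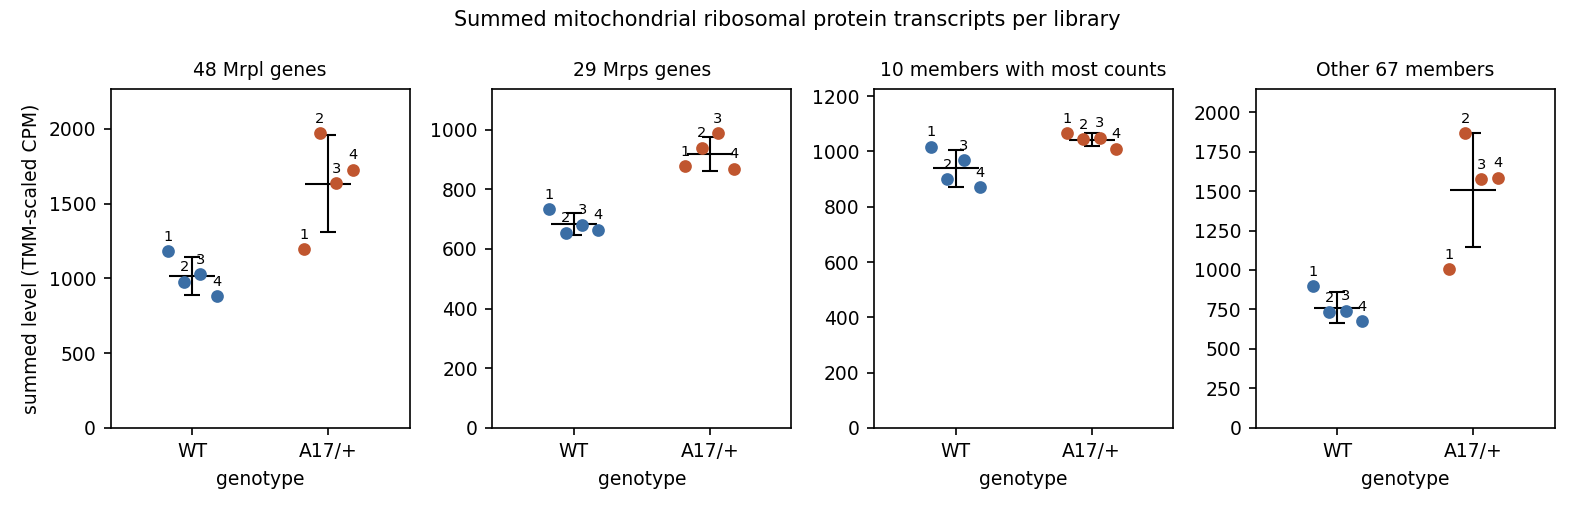
Summed level in TMM-scaled CPM (vertical axes, from 0) of the 48 Mrpl genes, the 29 Mrps genes, the 10 members with the highest mean level and the other 67, by genotype. Points are libraries with their replicate number, the bar is the mean and the whiskers 1 SD (n = 4). A17/+ 1 lies just above WT 1 in the Mrpl panel, and the 10 members with the highest level differ little between genotypes (939 ± 65.9 against 1042 ± 23.8 CPM) beside the other 67 (762 ± 96.0 against 1508 ± 361 CPM).

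Single genes were tested with edgeR's quasi-likelihood test, fitted and Benjamini-Hochberg adjusted over the 5066 genes that passed a filter on low counts (filterByExpr), of which 23 were members, 14 Mrpl and 9 Mrps. Of these 23 members 2 rose, Mrpl42 and Mrpl33, against 6.34% of all genes tested, and 0 fell, against 2.61%. The share of members called in either direction, 8.7%, was close to the 8.94% of all genes tested. At an unadjusted p under 0.05 there were 5 members, all higher, against 25.1% of all genes. The median log2 fold change was 0.24 over the 23 and 0.01 over all genes tested. The filter asks for 24.6 CPM, by library total, in 4 libraries. Mrpl33 passed it through its A17/+ libraries alone, the group where it is high, and 54 members did not pass. Leaving out WT 1 gave 8 members higher of 36 tested, where 16.3% of all genes were called in either direction, and leaving out A17/+ 1 gave 12 of 35, where it was 14%. Leaving out WT 2 gave 4 of 37 (5.92% of all genes), WT 4 gave 5 of 36 (6.01%), A17/+ 2 gave 1 of 24 (10.1%) and A17/+ 4 gave 1 of 22 (4.35%). Both the number tested and the share of all genes called thus moved with the library left out. In these fits every member called, apart from Mrpl42, lay below the filter in all WT libraries kept. Such members entered the test only through the group where they are high, and their calls are no support for a difference of the group. Removing a trend on transcript length from each library gave 0 of 23, where 8.67% of all genes were called in either direction.

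Mrpl42 (ENSMUSG00000062981, GRCm38 chromosome 10, 95480805 to 95501940, minus strand), a large subunit protein with no bacterial counterpart, had 85.6, 41.4, 31.4 and 15.1 CPM in WT 1 to 4 and 134, 139, 128 and 132 CPM in A17/+ 1 to 4. The A17/+ libraries lay close together above all WT libraries, and the spread was in WT, with WT 1 highest. It rose by 1.498 on the log2 scale (SE 0.32, adjusted p = 0.00974), and the means were 43.4 ± 30.2 and 133 ± 4.66 CPM (SD, n = 4). The adjusted p was 0.0517 without WT 3, with a log2 fold change of 1.34. With the length trend removed the log2 fold change was 0.46 (adjusted p = 0.404).

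Mrpl33 (ENSMUSG00000106918, chromosome 5, 31596935 to 31664384, plus strand), a small protein near the tRNA exit side of the large subunit, had 8.15, 2.96, 15.7 and 15.1 CPM in WT 1 to 4 and 24.7, 88.6, 28.2 and 41.5 CPM in A17/+ 1 to 4. All A17/+ libraries lay above all WT libraries, and A17/+ 2 was far above the rest. It rose by 2.20 on the log2 scale (SE 0.53, adjusted p = 0.0171), on 13 counts in WT and 74 in A17/+. Since it entered the test only through the group where it is high, its call is no support for a difference of the group. The adjusted p was 0.0545 without WT 2, with a log2 fold change of 1.84, and 0.446 with the length trend removed, with 0.67. Without A17/+ 2, without A17/+ 4, without both libraries numbered 1 and with thinned counts it lay below the filter and was not called. A non-coding transcript on the same strand, Gm43809, overlaps its exons.

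The tested large subunit members nearest to the threshold were Mrpl58 and Mrpl28, a protein with a bacterial homologue. Mrpl58 had 34.6, 14.8, 12.6 and 15.1 CPM in WT 1 to 4 and 39.0, 45.6, 38.4 and 44.1 CPM in A17/+ 1 to 4. The groups did not overlap, and WT 1 stood with the A17/+ libraries more than with the other WT libraries. Its log2 fold change was 1.00 (SE 0.35, adjusted p = 0.0813), and without WT 1 it was 1.53 (adjusted p = 0.0141). In that fit Mrpl58 passed the filter through its A17/+ libraries alone, so the call is no support for a difference. Mrpl28 had 18.3, 32.5, 25.1 and 25.2 CPM in WT 1 to 4 and 34.9, 65.8, 38.4 and 46.7 CPM in A17/+ 1 to 4. The lowest A17/+ library was just above the highest WT library, and the log2 fold change was 0.91 (SE 0.33, adjusted p = 0.0925).

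Of the 10 members with the highest mean level, Mrpl42 was the one that was called. Among the other large subunit proteins with a high level, Mrpl30, which has a bacterial homologue, had 208, 150.9, 135 and 131 CPM in WT 1 to 4 and 168, 160, 172 and 161 CPM in A17/+ 1 to 4, with WT 1 above all A17/+ libraries (log2 fold change 0.08, SE 0.20, adjusted p = 0.855). Mrpl13 had 104, 88.8, 78.5 and 100.8 CPM in WT 1 to 4 and 67.8, 70.9, 97.3 and 80.4 CPM in A17/+ 1 to 4, which overlap (−0.22, SE 0.22, adjusted p = 0.586). Its exons overlap Mtbp on the other strand, and without a stated strand setting the reads of such pairs cannot be told apart. Mrpl17, whose promoter with NRF1 letters is shown above, had 80.5 ± 20.4 CPM in WT and 90.2 ± 4.53 CPM in A17/+ (0.15, adjusted p = 0.744). The log2 fold changes were 0.31 for Mrpl18 (adjusted p = 0.477), −0.02 for Mrpl35, −0.06 for Mrpl24 and −0.31 for Mrpl50, the lowest of the tested members (adjusted p = 0.539). The exons of Mrpl18 overlap Tcp1 and those of Mrpl24 overlap Rrnad1, on the other strand. Under other scalings, thinning or left-out libraries the sign of Mrpl30, Mrpl17, Mrpl35 and Mrpl24 changed at least once, and that of Mrpl30 and Mrpl18 changed with the length trend removed (−0.63 and −0.20).

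Of the 9 Mrps genes tested, 8 of them for proteins of the small subunit and Mrps30 for the large one, 0 were called in either direction. Mrps9, a small subunit protein with a bacterial homologue and the member with the most counts (582), had 159, 201, 229 and 252 CPM in WT 1 to 4 and 214, 200, 195 and 140 CPM in A17/+ 1 to 4. The groups overlapped, with a log2 fold change of −0.13 (SE 0.20, adjusted p = 0.746). Mrps5, which in bacteria lies at the entry of the messenger RNA, had 88.4 ± 22.8 and 91.9 ± 7.35 CPM, and Mrps25 83.1 ± 12.4 and 96.3 ± 13.5 CPM (SD, n = 4), with log2 fold changes of 0.08 and 0.24. The sign of Mrps5 changed under some alternatives, and the exons of Mrps25 overlap Nr2c2 on the other strand. Mrps21 had −0.19 (adjusted p = 0.837). Mrps22, shown above for its ETS letters and named after its values were seen, had means of 23.5 CPM in WT and 21.2 CPM in A17/+.

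Mrps23, a protein added in mitochondria, had 28.5, 5.92, 6.28 and 5.04 CPM in WT 1 to 4 and 26.7, 35.5, 33.3 and 23.4 CPM in A17/+ 1 to 4. WT 1 lay inside the A17/+ range and the other 3 WT libraries far below it. Its log2 fold change was 1.12 (SE 0.48, adjusted p = 0.153) and became 2.26 (adjusted p = 0.0141) without WT 1. In that fit Mrps23 passed the filter through its A17/+ libraries alone, so the call is no support for a difference. Mrps27, a pentatricopeptide repeat protein, had 22.4, 32.5, 15.7 and 15.1 CPM in WT 1 to 4 and 34.9, 32.9, 33.3 and 38.9 CPM in A17/+ 1 to 4, so that WT 2 came close to the lowest A17/+ library without reaching it (0.67, SE 0.33, adjusted p = 0.214). Mrps26 had 17.4 ± 10.7 and 32.5 ± 16.3 CPM (SD, n = 4), which overlap (0.82, adjusted p = 0.277).

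**Figure D2:**
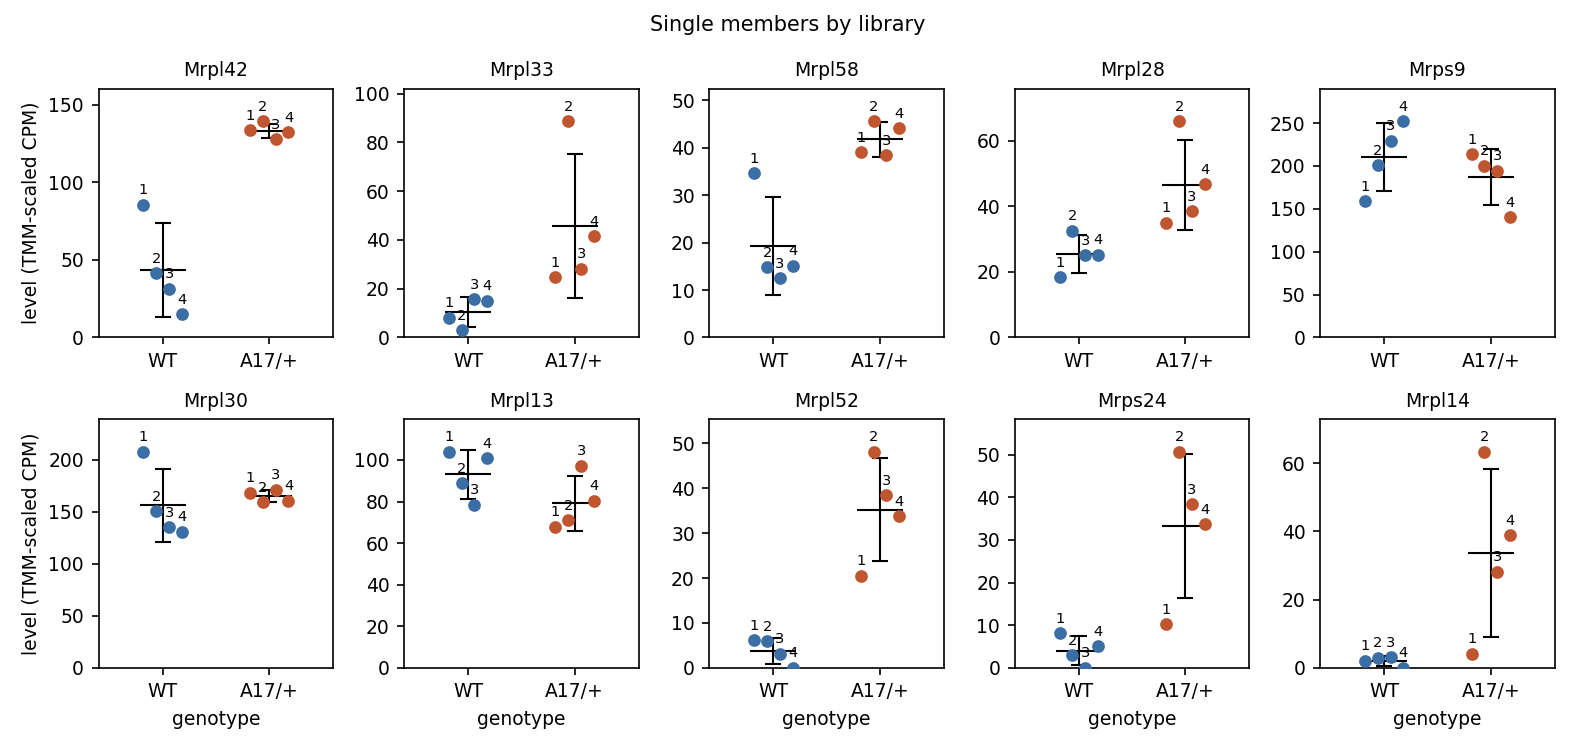
Level in TMM-scaled CPM (vertical axes, from 0) of 10 members by genotype, with 1 point per library and its replicate number, the mean as a bar and 1 SD as whiskers (n = 4). Mrpl42 and Mrpl33 rose, Mrpl58 has WT 1 at 34.6 CPM near the A17/+ libraries, Mrps9, Mrpl30 and Mrpl13 overlap between genotypes, and Mrpl52, Mrps24 and Mrpl14 have at most 8.15 CPM in WT.

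The members below the filter carried most of the difference in the sums: the 54 together had 452 ± 57.9 CPM in WT and 1066 ± 337 CPM in A17/+ (mean ± SD, n = 4). Of them 50 had a higher mean in A17/+, and no such share is given for all genes below the filter. Genes in general leaned the same way with no filter, with a median log2 fold change of 0.15 over all 19857 genes and 0.89 over the 77 members. The 5 with the largest difference in mean CPM (Mrpl12, Mrpl51, Mrpl14, Mrpl52 and Mrps24) and Mrpl45, Mrps6 and Mrps31 are named here after their values were seen. Mrpl12, the stalk protein that also binds the mitochondrial RNA polymerase, had 10.2, 2.96, 15.7 and 0 CPM in WT 1 to 4 and 6.16, 53.2, 38.4 and 83.0 CPM in A17/+ 1 to 4. A17/+ 1 lay inside the WT range, and the other 3 A17/+ libraries were above all of WT. Mrpl45, which anchors the ribosome at the inner membrane, had 0, 8.88, 6.28 and 5.04 CPM in WT 1 to 4 and 2.05, 50.6, 30.7 and 15.6 CPM in A17/+ 1 to 4, with A17/+ 1 again inside the WT range. Mrpl51 had 22 counts in WT and 79 in A17/+, and its A17/+ 1 value of 20.5 CPM was below the 21.99 CPM of WT 3.

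Mrpl14, a large subunit protein with a bacterial homologue, had 2.04, 2.96, 3.14 and 0 CPM in WT 1 to 4 and 4.11, 63.3, 28.2 and 38.9 CPM in A17/+ 1 to 4. The groups did not overlap, though A17/+ 1 was close to WT. It held 3 counts in WT and 53 in A17/+, a ratio of pooled CPM of 14.3 with an exact 95% interval for counting error of 4.65 to 71.7. Its exons overlap Tmem63b on the other strand. Mrpl52, the member with the shortest transcript, had 6.11, 5.92, 3.14 and 0 CPM in WT and 20.5, 48.1, 38.4 and 33.7 CPM in A17/+, which do not overlap. Mrps24, a small subunit protein with a bacterial homologue, had 8.15, 2.96, 0 and 5.04 CPM in WT and 10.3, 50.6, 38.4 and 33.7 CPM in A17/+, again without overlap, and its exons overlap Urgcp on the same strand. Mrps6 had 0 counts in WT and 0, 4, 4 and 2 in A17/+ 1 to 4, so that A17/+ 1 was at 0 like the WT libraries. Against a floor of 3 counts over the WT group the 10 counts of A17/+ gave a ratio of 2.71, which leaves out their counting error. The exons of Mrps6 overlap Slc5a3 and Gm49711 on the same strand. Mrps31 had a lower mean in A17/+, on 23 counts in WT and 16 in A17/+.

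A filter that does not use the group labels, a total of at least 40 counts over the 8 libraries, was also applied, since it reaches these genes. It kept 52 members among 7305 genes, and edgeR called 9 of the 52 higher, against 5.64% of all genes, and 0 lower, against 2.63%. The 9 were Mrpl42, Mrpl33, Mrpl14, Mrpl52, Mrpl51, Mrpl3, Mrps24, Mrps28 and Mrps14, with log2 fold changes from 1.37 (Mrpl3, SE 0.41, adjusted p = 0.0442) to 3.65 (Mrpl14, SE 0.83, adjusted p = 0.0138). Of the 9, Mrpl42 alone held as many as 40 counts in WT (69). The others reached the total only with their A17/+ counts, such as Mrpl14 (3 counts in WT and 53 in A17/+) and Mrpl52 (6 and 57). Their calls are thus no support for a difference of the group. The median log2 fold change was 0.60 over the 52 members and −0.00 over all genes. With no filter 15 of 77 were called higher, against 3.1% of all genes, and 0 lower, against 1.2%. Every member had at least 8 counts in total, whereas all genes were taken whatever their count, so these shares are not of like genes. The fit with no filter also gave smaller errors to some members with few counts, such as Mrpl12 (SE 0.47, against 0.76 with the total of 40). On the authors' deposited log2 values limma-trend called 11 of 73 higher, against 5.02%, and 0 lower, against 2.42%.

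Across the 77 members 66 had a higher mean in A17/+ and 11 a lower one. In the fit with no filter 65 of the 77 had a positive log2 fold change, against 11083 of all 19857 genes. All 4 A17/+ libraries lay above all 4 WT libraries in 16 members and below them in 0. Among the 52 with at least 40 counts such an order was found for 14, against 8.65% of all genes with that many counts, and the opposite order for 0, against 5.09%. As with the calls, members low in WT reached that total only with their A17/+ counts. In 31 members A17/+ 2, 3 and 4 were all above every WT library, and in 15 of these A17/+ 1 lay inside or below the WT range. No share over all genes is given beside the 16 and the 31, which describe the members only. A17/+ 2 was the highest library for 25 members, more than any other library, and WT 4, the smallest library, had 20 members at 0.

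**Figure D3:**
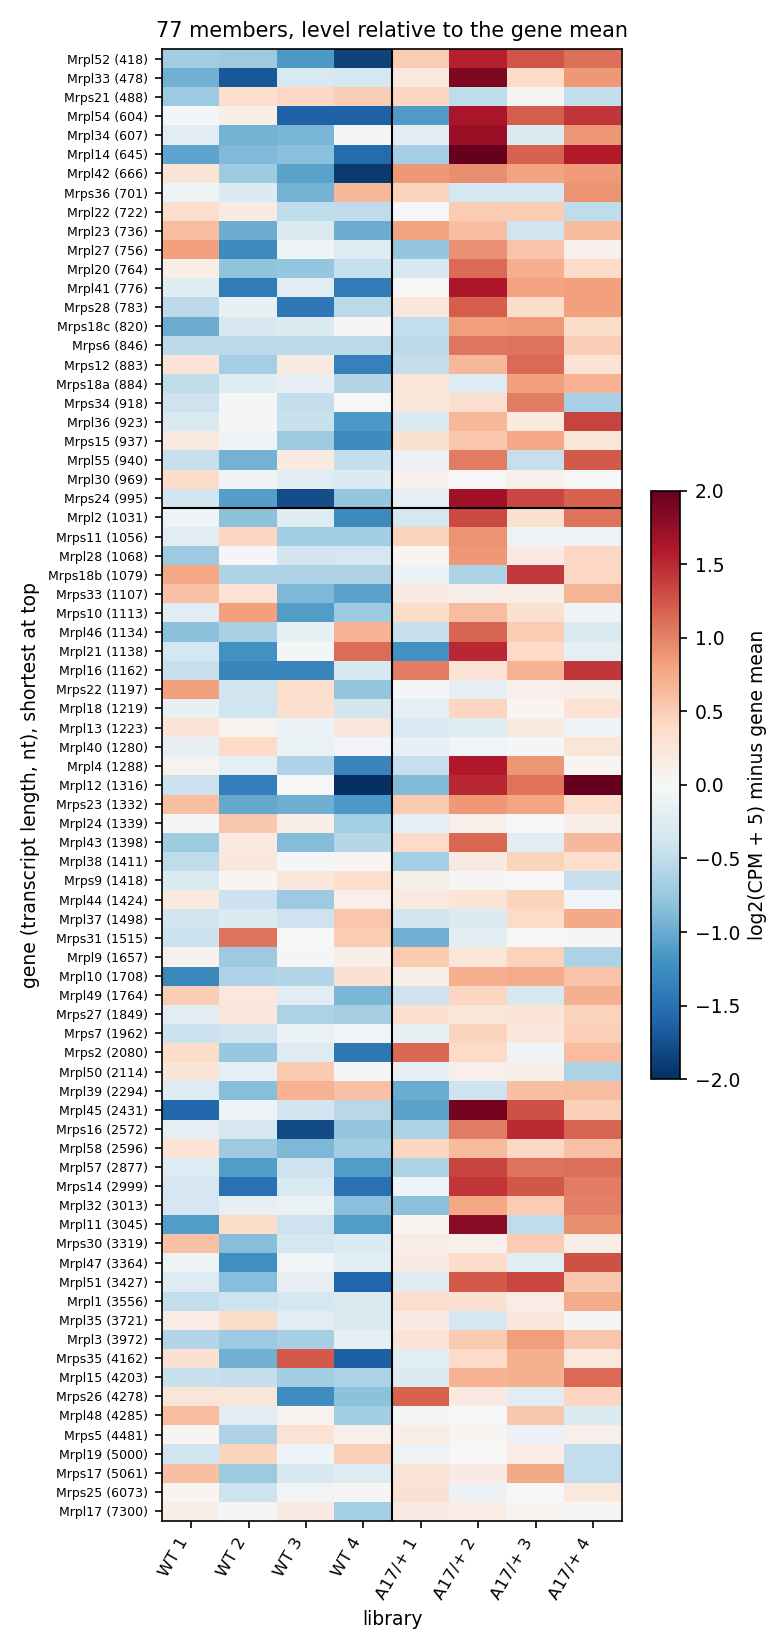
Level of each of the 77 members in each library, as log2(CPM + 5) minus the gene's mean over the 8 libraries (colour, shown between −2 and 2), ordered from the shortest transcript (418 nt) at the top to the longest (7300 nt). The vertical line parts WT from A17/+ and the horizontal line parts the 24 members under 1000 nt from the other 53. Red is most frequent in A17/+ 2 to 4, and the column of A17/+ 1 is paler than theirs.

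Transcript length went with the size of the difference among the members, as it did among all genes. Length is that of the principal annotated transcript, from 418 nt (Mrpl52) over a median of 1316 nt to 7300 nt (Mrpl17). The 24 members under 1000 nt summed to 357 ± 85.7 CPM in WT and 761 ± 161 CPM in A17/+, and the 53 of 1000 nt or more to 1343 ± 83.5 and 1789 ± 192 CPM (SD, n = 4), log2 differences of 1.09 and 0.41. In both classes all A17/+ libraries were above all WT libraries. Of the 14 shorter members with at least 40 counts 6 (42.9%) were called higher, against 36.7% of all such genes under 1000 nt. Of the 38 longer members 3 (7.89%) were called higher, against 4.01%. The annotated transcripts of Mrpl51 and Mrps14, which are 2 of these 3, are 3427 and 2999 nt long, and which transcript the tongue uses cannot be read from 3' counts. Called members were thus more frequent in the short class, as called genes were in the whole table. The medians of those 14 and 38 members were 1.51 and 0.32, against 1.499 and −0.03 for all genes of the same classes. Over the 52 members Pearson's r of log2 fold change with log2 length was −0.34 and Spearman's rho −0.33, against −0.42 and −0.30 over 7297 genes, and rho with log2 mean CPM was −0.47. These describe genes that share the same 8 libraries and are not independent replicates. With the length trend removed from each library the log2 differences of the sums were 0.20 for Mrpl and 0.080 for Mrps.

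**Figure D4:**
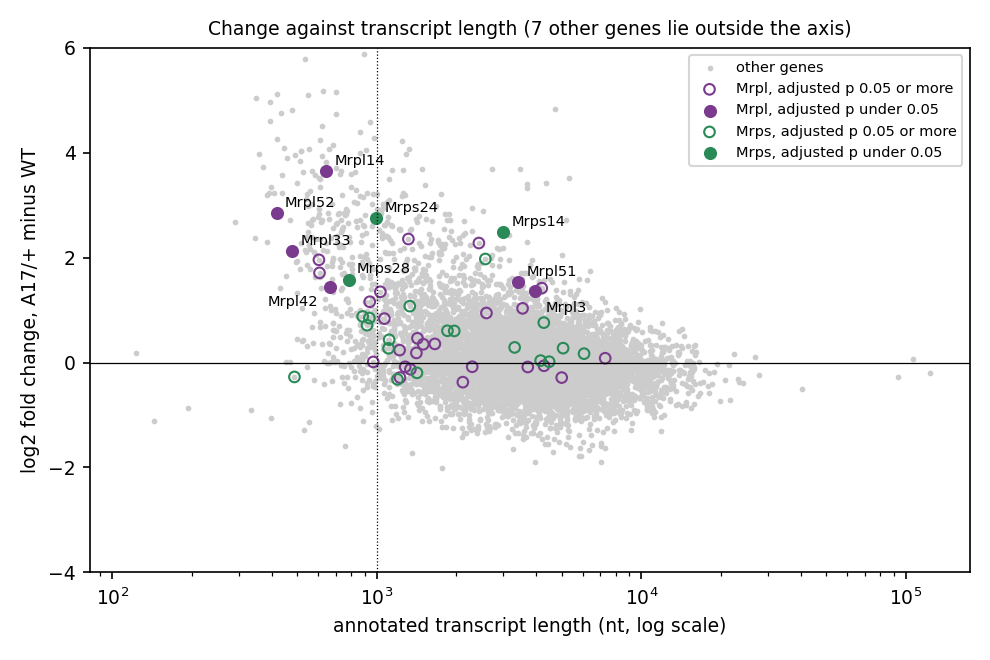
Log2 fold change of A17/+ against WT (vertical axis) against the length of the annotated transcript (horizontal, log scale) for genes with a total of at least 40 counts, 31 Mrpl and 21 Mrps members in colour and the other genes in grey. Filled symbols had an adjusted p under 0.05 in that fit (9 members, named), and the dotted line is at 1000 nt. The members lie within the cloud of all genes, whose left part lies higher.

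Proteins that belong to or serve the same ribosome under other names were counted next, in the same edgeR fit. Of 7 further mitoribosome proteins 3 were tested and 1 rose, Ndufab1, the mitochondrial acyl carrier protein that is also a subunit of complex I (72.0 to 169 CPM, log2 fold change 1.30, SE 0.25, adjusted p = 0.00566). Of the 14 translation factors counted, 7 were tested and 0 were called, with a median of −0.16, where the recycling factor Mrrf had −0.67 (adjusted p = 0.0551) and the initiation factor Mtif3 −0.42 (adjusted p = 0.285). Their summed level was 720 to 832 CPM in WT and 686 to 838 CPM in A17/+, which overlap. Of 31 assembly factors 4 were tested and 0 were called, with a median of −0.09, among them the protease subunit Spg7 (0.13) and Mterf3 (−0.12). With a total of at least 40 counts as the filter, 9 translation factors were tested and 1, Mrrf, was lower (−0.74, adjusted p = 0.0447).

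Mitochondrial aminoacyl-tRNA synthetases had 6 of 22 tested, 0 called and a median of 0.26, with Gatb, of the glutamyl-tRNA amidotransferase, at −0.87 (adjusted p = 0.0615) and Kars at 0.51 (adjusted p = 0.290). Genes of mitochondrial transcription and RNA processing had 9 of 23 tested, 0 called and a median of 0.00, with the RNA granule protein Grsf1 at 0.72 (adjusted p = 0.102) and Fastk at 0.93 (adjusted p = 0.111). Of 35 import and chaperone genes 15 were tested, 2 rose and 0 fell, with a median of 0.19. The 2 were Timm17a, of the inner membrane translocase (28.1 to 66.99 CPM, 1.23, SE 0.31, adjusted p = 0.0201), and Dnajc19, of its import motor (9.82 to 31.8 CPM, 1.53, SE 0.43, adjusted p = 0.0358). The WT mean of Dnajc19 lay below the 24.6 CPM of the filter, which it passed mostly or only through A17/+ libraries. With a total of at least 40 counts as the filter 4 of 25 were higher, with Tomm7 (2.34) and Timm13 (2.52) besides Timm17a and Dnajc19. Tomm7 had 8, 5, 2 and 1 counts in WT 1 to 4 and reached that total only with its A17/+ counts. The shares of these lists stand beside the 8.94% of all tested genes called in either direction, and those of the second filter beside 8.27%.

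The RNA partners of the proteins were also measured. The small subunit ribosomal RNA mt-Rnr1 had 29481, 14341, 21680 and 20754 CPM in WT 1 to 4 and 30641, 21901, 25810 and 35988 CPM in A17/+ 1 to 4, which overlap (log2 fold change 0.43, adjusted p = 0.232). The large subunit ribosomal RNA mt-Rnr2 had 17133, 11631, 18852 and 18839 CPM in WT and 31799, 25105, 26457 and 36167 CPM in A17/+, without overlap, and rose by 0.87 on the log2 scale (SE 0.19, adjusted p = 0.0102). The 8 messenger RNAs of the mitochondrial genome in the table, the templates of this ribosome, summed to 14353, 10693, 11170 and 10717 CPM in WT and 20885, 29937, 31208 and 47937 CPM in A17/+. All A17/+ libraries were above all WT libraries, with A17/+ 4 highest, whereas A17/+ 2 was highest for the Mrpl sum. The 84 cytosolic ribosomal protein genes summed to 5542 ± 1288 CPM in WT and 13627 ± 6327 CPM in A17/+ (mean ± SD, n = 4), a log2 difference of 1.19 against 0.58 for the 77 mitochondrial ones, with A17/+ 1 (6132 CPM) inside the WT range (4041 to 6783 CPM).

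Marker genes of the cell types in the tissue moved with the genotype too, and their part in the members' difference was not tested. Of 10 skeletal muscle markers 6 rose and 0 fell, among them Acta1 (1.68), Tnnt3 (1.18) and Ckm (1.09). Summed, they had 69695 to 96671 CPM in WT and 90124 to 109457 CPM in A17/+, which overlap, and all 10 passed the filter. Of 11 tested tongue epithelium markers 0 rose and 3 fell, Dsp (−0.85), Perp (−0.72) and Krt76 (−0.72). The median of the 11 was −0.03, with Krt5 at 0.81, Lor at 0.79 and Krt13 at 0.68, none of which was called. The 12 in the table summed to 14600 to 16711 CPM in WT and 10333 to 19232 CPM in A17/+. Of 8 fibroblast markers 3 rose and 0 fell, Dcn (2.24), Col3a1 (1.31) and Fbn1 (0.82), and their sums, 676 to 902 CPM in WT and 965 to 1608 CPM in A17/+, did not overlap. Of 6 endothelial markers 0 were called, with sums of 346 to 388 and 362 to 420 CPM. Macrophage markers had 2 of 7 tested and 0 called (91.1 to 326 and 315 to 376 CPM). Fabp4, the 1 tested of 5 adipocyte markers in the table, rose by 2.68, and their sums were 8.88 to 20.2 and 65.7 to 110 CPM. Hbb-bs, the 1 tested of 5 red blood cell markers, rose by 5.24, and their sums were 18.3 to 29.6 and 92.4 to 1195 CPM, highest in A17/+ 2. The adipocyte sum lay below the 24.6 CPM of the filter in every WT library, so Fabp4 entered the test only through the group where it is high. The red blood cell sum lay below it in WT 1, 3 and 4, so Hbb-bs entered mostly or only in that way. Neither call is support for a difference of these cell types. No marker of these lists that is in the table was at 0 in all libraries.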

How the data were processed

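The authors' deposited table holds raw counts of unique molecular identifiers per Ensembl gene for 8 libraries, and their deposited log2 values, 1 file per library, were used in 1 alternative only. The submitters' processing notes name cutadapt 2.10, STAR 2.7.5a, UMI-tools 1.1.1, HTSeq and the build mm10. Settings, strand and annotation release are not given in the sources used here. Symbols, positions and lengths came from GENCODE M21 (GRCm38), by Ensembl identifier.

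Counts were filtered with filterByExpr (minimum count 10, minimum total 15), scaled by TMM and tested over all genes by edgeR 4.0.16 under R 4.3.3 (glmQLFit, robust, and glmQLFTest). Genotype was the single term, and Benjamini-Hochberg adjusted p had to be under 0.05. Log2 fold changes are A17/+ minus WT. Sums are counts over members, filtered or not, as TMM-scaled CPM. The fit was tested on simulated data for this comparison: of the genes changed 2-fold 45.5% of 88 were recovered and of those changed 4-fold 100% of 87, among 5066 genes, with 7.30% of calls false. No pair of libraries of a genotype agreed within sampling noise. At totals from 205696 to 485326 a member at 10 CPM is a few molecules, and intervals cover counting error only.

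The members and gene lists were chosen with earlier results of these data known. Named members are those past the threshold, the 10 with the highest mean level, the 6 tested with the smallest p not past it and the 4 tested with the lowest fold change. Of each other list up to 3 called genes, or 2 as values, are named. Other names were chosen after their values were seen. Alternatives were upper quartile, relative log expression and library total scaling, DESeq2 1.42.0, limma-voom (limma 3.58.1), other filters, an adjusted p under 0.1, a replicate block, removal of a length trend, thinning, removal of abundant transcripts, other groupings of members and left-out libraries. limma-trend on the deposited log2 values was added after the data were seen.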

Additional observations from a re-analysis of the deposited data

Results flagged for a closer look

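In 82 groups of 4 libraries, the values of the named members, the sums and the ratios in each genotype, 1 library was checked for lying far from the other 3, and chance alone gives about 1 in 20 such groups. There were 3, and all were WT 1. For Mrpl58 WT 1 had 34.6 CPM and the other WT libraries 12.6 to 15.1 CPM. For Mrps23 WT 1 had 28.5 CPM and the others 5.04 to 6.28 CPM. For the summed messenger RNAs of the mitochondrial genome WT 1 had 14353 CPM and the others 10693 to 11170 CPM.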

How the results depend on the processing

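The count of members lower in A17/+ was 0 under all 22 alternatives. The count of members higher, 2 of 23 tested, was 2 with relative log expression, upper quartile or library total scaling, DESeq2 and abundant transcripts left out. In these fits 8.55% (DESeq2) to 11.2% (library totals) of all genes were called in either direction. The same share is given in brackets for the other fits. The count was 1 with limma-voom (4.5%) and 4 at an adjusted p under 0.1 (15.3%). With counts thinned to the smallest library it was 1 of 10 tested (9.49%), and with the length trend removed 0 (8.67%). It was 9 of 52 with a total of at least 40 counts (8.27%) and 15 of 77 with no filter (4.3%). Without both libraries numbered 1 it was 9 of 25 (20.9%). With limma-trend on the deposited log2 values, added after the data were seen, it was 11 of 73 (7.44%). Leaving out 1 library gave 1 to 12, with 22 to 37 members tested (3.74% to 16.3%). In the fits with 1 library or both libraries numbered 1 left out, the members called apart from Mrpl42 lay below the filter in all WT libraries kept. Their calls are no support for a difference of the group. With the replicate number as a block the count was 2 (8.09%). Equal numbers did not pair the libraries: the deviations of same-numbered libraries correlated at 0.00, 0.07, −0.10 and −0.16.

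The log2 difference of the Mrpl sum (0.67) was 0.20 with the length trend removed and 0.33 over members that passed the filter, and 0.57 to 0.77 with 1 library left out. That of the Mrps sum (0.43) was 0.31 with library totals, 0.080 with the length trend removed and 0.14 over members that passed the filter. It was 0.87 without the 3 Mrps members with most counts, and 0.37 to 0.43 with 1 library left out. Without the 3 Mrpl members with most counts the Mrpl sum had 0.71, so that the order of the 2 sums turned. Other alternatives moved either sum by less than the spread between libraries. Of 383 alternative values for the 18 named members 373 kept their call, which for most members meant staying uncalled. Fits in which a member lay below the filter gave no value and are not among the 383. Of the 2 called members Mrpl42 passed the threshold in 20 of 22 alternatives, and Mrpl33 in 15 of the 18 in which it was tested. Mrpl33 also missed the threshold with limma-voom (1.96, adjusted p = 0.0793), and Mrpl58 passed it without both libraries numbered 1 (1.61, adjusted p = 0.00873). In that fit Mrpl58 entered the test through its A17/+ libraries alone. The cause of these changes was not tested, apart from the number of members each filter leaves.

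Depth limits what single members can show: 55 of the 77 had a mean under 10 counts per library, and 2-fold changes were recovered less often than 4-fold ones on simulated data.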
